A study of Mus musculus with 10 samples.

Results

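The 6 genes Irf9, Stat2, Ifit2, Ifitm2, Ifitm3 and B2m, which belong to interferon signalling and response, were followed in RNA sequencing of embryonic mouse cortical cells that carried either a control hairpin (shRNA) or one directed at Chd8. They were chosen by symbol, as genes that a double-stranded RNA response to the hairpins could raise, and all 6 were found among the 23235 gene symbols of each expression table. All 6 also passed the filter for testing (a mean of at least 1 FPKM in a table, where FPKM are fragments per transcript length and per number of mapped fragments). Irf9 was lower in the knockdown libraries of one set of samples (log2 fold change −1.28, limma adjusted p = 0.0270) and did not pass in the other. Ifit2 was called lower when both sets were joined and in neither set alone (joined −0.60, limma adjusted p = 0.0259). None of the 6 was called higher with a Chd8 shRNA in either set.

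Interferons are secreted proteins that warn cells of infection. Type I interferons bind the receptor chains Ifnar1 and Ifnar2, whose kinases Jak1 and Tyk2 phosphorylate Stat2. Stat2 joins Irf9 in the complex ISGF3, which binds interferon-stimulated response elements (ISRE) in DNA. Among the target genes are Ifit2, a protein of the tetratricopeptide-repeat family that acts on viral RNA, the membrane proteins Ifitm2 and Ifitm3, which hinder the entry of enveloped viruses, and B2m, the light chain of MHC class I. Cells sense double-stranded RNA through the helicases Ddx58 (RIG-I) and Ifih1 (MDA5), the endosomal receptor Tlr3, the kinase Eif2ak2 (PKR) and the oligoadenylate synthetases, and long or abundant hairpin RNA can engage this system. In the healthy embryonic brain the pathway has a low tonic activity, and microglia and vascular cells carry much of the expression of B2m and Ifitm3.

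Radial glial cells of the cortex were electroporated in utero at embryonic day 13 with plasmids for GFP and an shRNA, and GFP-positive cells were sorted at embryonic day 15. Each replicate pooled the cortices of 3 to 5 embryos, so a value is a mean over embryos and over all cells in the gate. A new set held 3 libraries with control shRNA and 3 with Chd8 shRNA (replicates 10, 11 and 12), and a first set held 2 and 2 (replicates 1 and 2). The controls also received a hairpin, so the comparisons ask what differs between hairpins, not what a hairpin does, and no library without an shRNA was analysed here. The sets lie in separate tables that are named for different hairpins, and the titles mark one set as new. The labels give neither the hairpin nor the batch of a sample, so hairpin, batch and table cannot be told apart where the sets differ. The sources used here give neither the strain and sex of the embryos nor the hairpin sequences.

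The markers of the labelled tissue were present, as each of 9 radial glia, 5 intermediate progenitor and 8 neuron markers was at 1 FPKM or more in every library. Some of them also moved with the groups. The neuron markers summed to 2097 to 2424 FPKM in the new-set controls and 2927 to 3565 FPKM in the knockdown libraries (3 of 8 called higher), against 4003 to 4589 and 2812 to 3007 FPKM in the first set (4 of 8 called lower). Of 9 radial glia markers 5 were called lower in new-set knockdown and 2 in that of the first set. For comparison, 3.84% of all genes tested there were called higher with new-set knockdown and 5.15% lower. The first-set shares of all tested genes were 13.2% higher and 10.7% lower. The intermediate progenitor sums were 587 to 734 FPKM in new-set controls and 396 to 438 FPKM with knockdown (2 of 5 called lower). First-set sums of these progenitor markers were 443 and 478 FPKM in controls 1 and 2. With knockdown they were 768 FPKM in library 1 and 400 FPKM in library 2 (1 of 5 called higher, 2 lower). The part of these shifts in the levels of the 6 genes was not tested. The target itself, Chd8, a chromatin remodeler, was at 53.6% of its control mean in the new-set knockdown libraries and at 68.0% in the first set, with no overlap in either set. Absolute depth is unknown, and relative depth ran from 0.959 to 1.39 in the new set and from 0.529 to 1.23 in the first set, each against its first control library. The first-set knockdown libraries stood apart. There, 1096 olfactory receptor genes, a family not used by cortical cells, averaged 0.672 and 0.557 FPKM, against at most 0.00817 FPKM in the other 8 libraries, and the 95th percentile of these genes was 2.85 and 2.46 FPKM.

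The promoters of the 6 genes are shown first, because the ISRE is the sequence through which Irf9 and Stat2 act. Promoter windows from RefSeq (build GRCm38.p6, 250 bases before to 50 bases after a gene's start) were matched for all 6. They were searched on both strands for the ISRE core, GAAA and GAAA separated by any 2 bases (TTTC and TTTC on the reverse strand), and for the palindromic gamma-activated sequence (GAS) TTCNNNGAA. The ISRE core was in 4 of the 6 genes, against 3.44% of all 32851 windows and 3.99% of 27025 genes counted over their windows. The 4 windows that hold it are printed 5′ to 3′ on the gene's strand, with the core in capitals. Stat2 is shown at chr10:128270248-128270547 (plus strand), Ifitm2 at chr7:140955912-140956211 (minus), Ifitm3 at chr7:141010695-141010994 (minus) and B2m at chr2:122147437-122147736 (plus).
Stat2: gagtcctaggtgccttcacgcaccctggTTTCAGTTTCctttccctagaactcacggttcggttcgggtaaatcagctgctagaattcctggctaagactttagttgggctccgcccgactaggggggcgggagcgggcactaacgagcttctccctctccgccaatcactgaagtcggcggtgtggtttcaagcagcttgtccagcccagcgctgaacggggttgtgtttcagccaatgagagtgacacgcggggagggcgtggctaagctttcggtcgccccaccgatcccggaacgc
Ifitm2: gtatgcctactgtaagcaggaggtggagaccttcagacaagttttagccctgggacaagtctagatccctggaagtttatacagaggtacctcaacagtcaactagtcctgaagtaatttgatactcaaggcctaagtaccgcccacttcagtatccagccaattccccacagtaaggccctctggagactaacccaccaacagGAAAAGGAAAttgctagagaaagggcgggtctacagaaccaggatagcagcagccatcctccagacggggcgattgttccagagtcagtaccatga
Ifitm3: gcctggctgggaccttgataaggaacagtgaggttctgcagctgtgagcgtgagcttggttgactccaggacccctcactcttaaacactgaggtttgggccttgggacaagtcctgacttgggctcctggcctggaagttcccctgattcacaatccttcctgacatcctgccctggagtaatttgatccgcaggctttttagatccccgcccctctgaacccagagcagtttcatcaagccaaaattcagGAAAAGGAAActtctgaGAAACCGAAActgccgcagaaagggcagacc
B2m: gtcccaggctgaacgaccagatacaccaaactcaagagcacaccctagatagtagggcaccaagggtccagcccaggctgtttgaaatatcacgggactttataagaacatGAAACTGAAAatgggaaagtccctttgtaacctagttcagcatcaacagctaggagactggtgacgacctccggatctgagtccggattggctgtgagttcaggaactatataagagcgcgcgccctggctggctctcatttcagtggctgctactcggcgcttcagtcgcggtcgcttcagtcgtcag
In Stat2 the core lies in reverse orientation and begins 222 bases before the start. In Ifitm2 it begins 46 bases before the start and in B2m 139 bases before it. Ifitm3 holds 2 cores, at positions 3 and 20 after the start, and a GAS at position 14 overlaps the second core. The letters of the core are not in the 2 windows of Irf9 (chromosome 14) or the 2 windows of Ifit2 (chromosome 19), and Ifit2 has a GAS 241 bases before the gene start of its first window. The GAS is common, in 8.3% of all windows. A match of letters is a description and not evidence of binding.

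The same core was in 14 of 31 interferon-stimulated effector genes with a window (45.2%), in 7 of 17 genes of double-stranded RNA sensing, in 3 of 18 genes of MHC class I presentation and in 0 of 8 receptor and JAK-STAT genes. Of 259 genes with a core that were tested in the new set, 6 were higher and 16 lower, or 8.49% called, against 9.12% of the 7792 tested genes with a window and no core. The first-set shares were 30.4% of 296 genes and 22.9% of 8488 genes. These shares are descriptions and were not compared by a test.

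In the new set the 6 genes differed widely in level. The control means (FPKM, ± SD, n = 3) were 97.5 ± 13.4 for Ifitm2, 39.8 ± 18.5 for B2m, 11.1 ± 8.42 for Ifitm3, 6.85 ± 0.812 for Stat2, 6.82 ± 2.17 for Irf9 and 3.24 ± 0.400 for Ifit2. Ifitm2 and B2m lay above the other 4 genes in every control library. The control ranges of Ifitm3, Stat2 and Irf9 overlapped, and so did those of Ifitm3 and Ifit2, so the order among these is not beyond their spread. The knockdown means were 99.8 ± 5.23 for Ifitm2, 14.9 ± 7.62 for B2m, 2.07 ± 1.5 for Ifitm3, 6.35 ± 0.827 for Stat2, 2.21 ± 0.792 for Irf9 and 2.66 ± 0.887 for Ifit2.

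**Figure D1:**
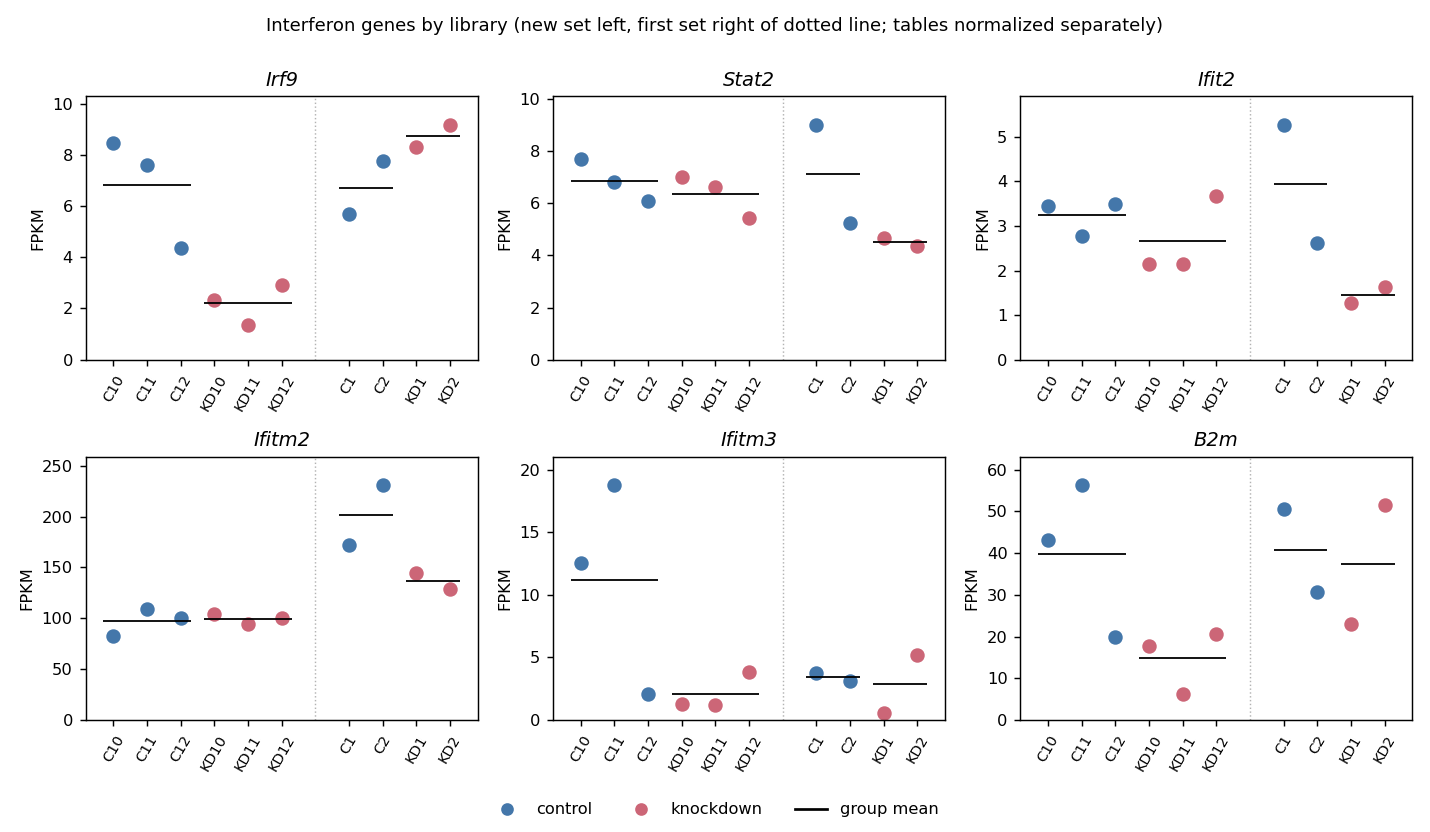
FPKM (vertical axes, from 0) of each gene in every library, with control libraries (C) in blue, knockdown libraries (KD) in red, the replicate number after the letter and a bar at each group mean. Irf9 is lower in all 3 new-set knockdown libraries, at 1.35 to 2.92 FPKM against 4.37 to 8.47 FPKM, while Ifitm3 and B2m are highest among the new-set libraries in controls 10 and 11.

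Irf9, the DNA-binding subunit of ISGF3, was at 8.47, 7.62 and 4.37 FPKM in new-set controls 10, 11 and 12 and at 2.35, 1.35 and 2.92 FPKM in knockdown libraries 10, 11 and 12. The groups did not overlap, and the knockdown mean was 32.4% of the control mean. The log2 fold change, on the log2(FPKM + 1) scale used throughout, was −1.28 (SE 0.255, 95% interval −1.86 to −0.69, limma adjusted p = 0.0270). Irf9 was the 1 gene of the 6 that passed, against 8.99% of all 11291 genes tested, and the 1 gene of the 6 whose groups did not overlap, against 35.7% of all genes. The call was lost without control 10 (−1.12, limma adjusted p = 0.0821), knockdown 10 (−1.32, 0.0732), knockdown 11 (−1.07, 0.104) or knockdown 12 (−1.44, 0.0514) and with no filter on low values (−1.28, 0.154), and it held without control 11 (0.0421) or 12 (0.0339).

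Stat2, the partner of Irf9 in that complex, was at 7.70, 6.79 and 6.08 FPKM in the controls against 7.02, 6.604 and 5.42 FPKM in the knockdown libraries. Its groups overlapped, with a log2 fold change of −0.10 (SE 0.131, 95% interval −0.40 to 0.20, limma adjusted p = 0.645). Within each of the 3 same-numbered pairs the knockdown value was the lower one, and with the replicate number as a block Stat2 did not pass either (limma adjusted p = 0.451). The fall of Irf9 was not accompanied by a called change of its partner, although the difference between the genes was not tested.

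Ifit2 was at 3.46, 2.78 and 3.49 FPKM in the controls against 2.15, 2.14 and 3.68 FPKM in the knockdown libraries. Knockdown 12 held the highest of the 6 values and knockdown 10 and 11 the lowest, so the groups overlapped (−0.24, SE 0.179, 95% interval −0.65 to 0.18, limma adjusted p = 0.400). Ifitm2 varied least of the 6 genes, at 83.0, 110 and 99.9 FPKM in the controls and 105, 94.2 and 100 FPKM in the knockdown libraries. Its highest library was 1.32 times its lowest, and its fold change was 0.04 (SE 0.111, 95% interval −0.21 to 0.30, limma adjusted p = 0.831). That estimate was −0.07 without control 10, so it has no settled sign.

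Ifitm3, the close relative of Ifitm2, varied most. It was at 12.5, 18.8 and 2.11 FPKM in controls 10, 11 and 12 against 1.24, 1.17 and 3.80 FPKM in the knockdown libraries. Controls 10 and 11 were high and control 12 lay inside the knockdown range, so the groups overlapped. The fold change was −1.72 with a wide interval (SE 0.635, 95% interval −3.18 to −0.26, limma adjusted p = 0.117). Without control 12 it was −2.52 and passed (limma adjusted p = 0.0319). The ratio of Ifitm2 to Ifitm3 ran from 5.83 to 84.5 across these 6 libraries, and the smallest ratios were those of controls 10 and 11. The transcripts of Ifitm2 and Ifitm3 are 73.2% identical over 582 aligned bases, with a longest shared run of 69 bases, and the sources used here do not say how fragments in shared stretches were assigned.

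B2m, which holds MHC class I heavy chains at the cell surface, was at 43.2, 56.4 and 19.9 FPKM in the controls against 17.8, 6.22 and 20.6 FPKM in the knockdown libraries. As with Ifitm3, controls 10 and 11 were the highest pair, and control 12 lay below knockdown 12. The fold change was −1.39 (SE 0.470, 95% interval −2.47 to −0.31, limma adjusted p = 0.0957). Together, 3 of the 6 genes had an unadjusted p under 0.05 in the new set, against 30.02% of all tested genes. Of the 6 estimates 5 were below 0, against 47.05% of all genes, with a median of −0.76 against 0.02.

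**Figure D2:**
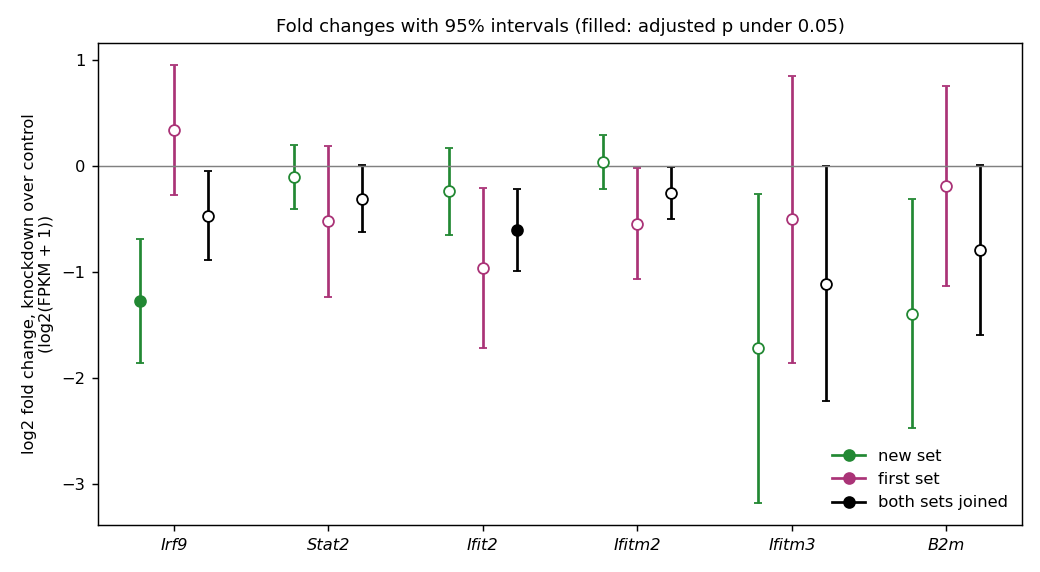
Log2 fold change of knockdown over control (vertical axis, log2(FPKM + 1) scale) for each gene in the new set (green), in the first set (purple) and with both sets joined (black). Points are limma estimates, bars are 95% intervals and filled points passed an adjusted p under 0.05: Irf9 at −1.28 in the new set and Ifit2 at −0.60 with the sets joined.

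The high values of controls 10 and 11 were shared by Irf9, Ifitm3 and B2m and by other interferon genes. A gene was counted here when both of these libraries were above each of the other 4 libraries of the new set, a criterion chosen after the values were seen. It held for 3 of the 6 genes and for 8.82% of all 11291 tested genes. Among genes of the pathway it held for 9 of 15 tested interferon-stimulated effectors, 5 of 10 tested genes of MHC class I presentation and 2 of 7 tested genes of double-stranded RNA sensing. Usp18, a protease that removes Isg15 from proteins and dampens receptor signalling, was at 12.03 and 13.5 FPKM in controls 10 and 11 and at 3.06 FPKM in control 12, against 2.18, 0.0483 and 4.29 FPKM in the knockdown libraries. Bst2, which tethers budding virus to the cell, was at 9.50 and 12.6 FPKM in those controls and at 2.78 FPKM in control 12, against 2.25, 0.730 and 1.90 FPKM in the knockdown libraries. Neither Usp18 (−1.81, limma adjusted p = 0.108) nor Bst2 (−1.68, 0.0556) passed.

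**Figure D3:**
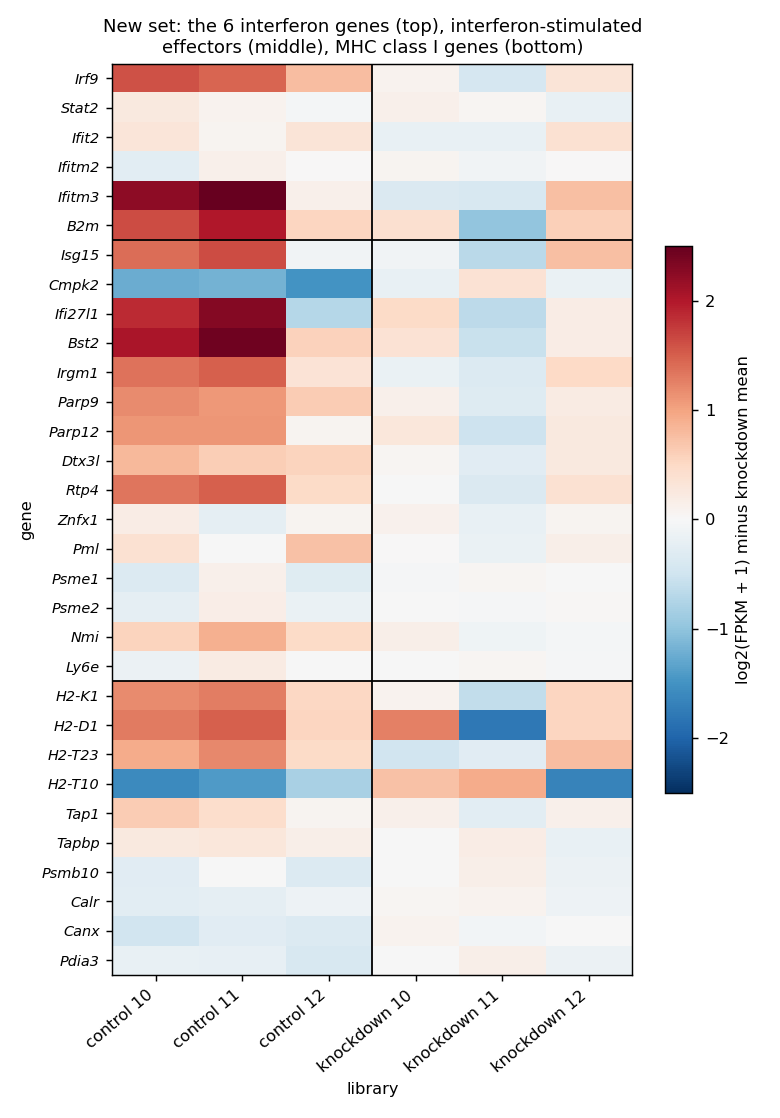
Log2(FPKM + 1) minus the knockdown mean of each gene (colour) in the 6 new-set libraries (columns) for the 6 genes, the 15 tested interferon-stimulated effectors and the 10 tested MHC class I genes (rows). Controls 10 and 11 are the darkest red for Irf9, Ifitm3 and B2m and for 9 of the 15 effectors, while control 12 lies within the knockdown range for Ifitm3 and B2m.

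Without controls 10 and 11, an alternative chosen after seeing the data, the fold changes against the remaining control were −0.77 for Irf9 (limma adjusted p = 0.166), −0.12 for Ifitm3 (0.877) and −0.54 for B2m (0.575). None of the 6 genes passed then, and 21 of all genes did. The summed erythroid and the summed microglia and macrophage markers were also highest in controls 10 and 11. The 11 erythroid markers summed to 328, 429 and 225 FPKM in controls 10, 11 and 12 and to 175, 38.9 and 81.0 FPKM in the knockdown libraries, and for 5 of the 6 tested ones controls 10 and 11 were the highest pair. Of the 11, 1 was at 0 in all 3 knockdown libraries. The 19 markers of microglia and macrophages summed to 13.7, 14.8 and 6.66 FPKM in the controls and 10.9, 7.92 and 3.38 FPKM in the knockdown libraries, none at 0 throughout a group and no single one above 2.56 FPKM. Controls 10 and 11 were the highest pair for 1 of the 4 tested microglia and macrophage markers. The sums of the other lists did not follow these controls. Those of 14 endothelial and pericyte markers were 3.95, 4.18 and 4.01 FPKM in the controls and 4.20, 1.79 and 2.65 FPKM in the knockdown libraries. Those of 8 meningeal markers were 1.58, 1.11 and 1.06 FPKM and 2.46, 1.05 and 0.777 FPKM. The libraries come from sorted GFP-positive cells, and how many blood, microglial, vascular and meningeal cells passed the gate is not known. The part of such cells in the levels of Irf9, Ifitm3 and B2m was not tested, and in bulk samples fewer cells of a type and less RNA per cell cannot be told apart.

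**Figure D4:**
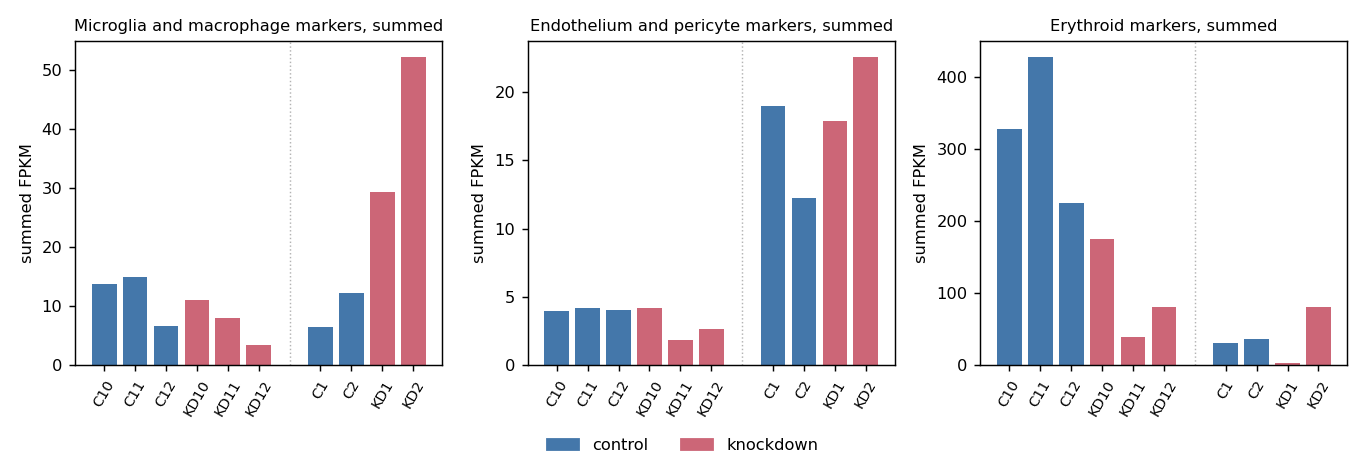
Summed FPKM (vertical axes, from 0) of the microglia and macrophage, endothelium and pericyte, and erythroid markers in each library, controls (C) in blue and knockdown libraries (KD) in red. In the new set the erythroid sum is largest in controls 10 and 11 (328 and 429 FPKM), and in the first set the microglia and macrophage sum is largest in both knockdown libraries (29.3 and 52.2 FPKM).

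In the first set Irf9 was at 5.67 and 7.78 FPKM in controls 1 and 2 and at 8.29 and 9.18 FPKM in knockdown libraries 1 and 2. Here both knockdown values were above both controls (0.35, SE 0.261, 95% interval −0.27 to 0.96, limma adjusted p = 0.356). The difference between the sets, new minus first, was tested itself and was −1.62 for Irf9 (SE 0.381, 95% interval −2.46 to −0.79, limma adjusted p = 0.00882). It was the 1 gene of the 6 that passed that test, against 32.5% of all 10827 genes tested in both tables, 22.5% above 0 and 9.98% below it. Without controls 10 and 11 of the new set the difference was −1.12 and did not pass (limma adjusted p = 0.0781).

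Stat2 was at 9.01 and 5.23 FPKM in the first-set controls against 4.67 and 4.36 FPKM in both knockdown libraries (−0.52, SE 0.302, limma adjusted p = 0.241). Control 1 was far above the other 3 libraries. Ifit2 was at 5.27 and 2.61 FPKM in the controls against 1.28 and 1.62 FPKM in both knockdown libraries, or 36.8% of control (−0.96, SE 0.321, limma adjusted p = 0.0682). Ifitm2 was at 172 and 231 FPKM in the controls against 145 and 129 FPKM in both knockdown libraries, or 67.9% of control (−0.54, SE 0.223, limma adjusted p = 0.117). In all of Stat2, Ifit2 and Ifitm2 both knockdown values were below both controls.

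Ifitm3 and B2m overlapped between the first-set groups. Ifitm3 was at 3.75 and 3.11 FPKM in the controls against 0.572 and 5.19 FPKM in both knockdown libraries (−0.50, SE 0.576, limma adjusted p = 0.545). B2m was at 50.7 and 30.8 FPKM in the controls against 23.1 and 51.5 FPKM in both knockdown libraries (−0.19, SE 0.401, limma adjusted p = 0.753). For both genes knockdown 1 was the lowest of the 4 libraries and knockdown 2 the highest, and 1 library decided the sign. Without knockdown 1 the estimates were 0.49 for Ifitm3 and 0.37 for B2m, and without knockdown 2 they were −1.49 for Ifitm3, which then passed (limma adjusted p = 0.0400), and −0.75 for B2m, which did not. The summed erythroid markers were likewise lowest in knockdown 1 and highest in knockdown 2, at 2.31 FPKM in knockdown 1 and 79.9 FPKM in knockdown 2 against 29.96 and 36.1 FPKM in the controls, and 2 of the 11 were at 0 in both controls. The endothelial and pericyte sums ran from 12.2 to 22.6 FPKM. The part of these cells was not tested.

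None of the 6 genes passed limma's adjusted test in the first set, against 23.8% of all 12461 genes tested, and 2 of 6 (Ifit2 and Ifitm2) had an unadjusted p under 0.05, against 39.2% of all genes. The groups did not overlap for 4 of the 6, 3 lower and 1 higher, against 67.8% of all genes, 40.4% lower and 27.4% higher. The set has few libraries. In simulated data of this size 10% of genes with a log2 change of 1 were recovered and 80% of those with a change of 2. Only 50 genes were changed per size of change there, all at 5 FPKM or more, whereas 23.8% of genes passed here. The simulated shares therefore do not carry over to these data or to lower genes. When the level of the olfactory receptor genes in each library was subtracted, Ifit2 passed (−1.38, limma adjusted p = 0.0331) and the other 5 did not. That took 0.672 and 0.557 FPKM from the knockdown libraries and at most 0.00817 FPKM from the controls, so it lowers low genes with knockdown. Ifit2 in both knockdown libraries and Ifitm3 in knockdown 1 were under the 95th percentile of the olfactory receptor genes there (2.85 and 2.46 FPKM).

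With both sets joined, as the mean of the 2 fold changes, all 6 estimates were below 0, as were 63.1% of those over all genes, and Ifit2 alone passed (−0.60, SE 0.177, 95% interval −0.99 to −0.21, limma adjusted p = 0.0259), against 29.9% of all 10827 genes, 9.37% higher and 20.5% lower. The others were −0.47 for Irf9 (limma adjusted p = 0.0854), −0.31 for Stat2 (0.125), −0.25 for Ifitm2 (0.107), −1.11 for Ifitm3 (0.117) and −0.79 for B2m (0.121). Of the 6 genes, none had knockdown values below all controls in each set, which 7.6% of all genes did. Irf9 was lower without overlap in the new set and higher without overlap in the first set, which 3.86% of all genes were. The joined estimate of Ifit2 includes its first-set knockdown values, which were under the olfactory receptor percentile of their libraries. The call for Ifit2 was lost without new-set control 10 (adjusted p = 0.0561), control 12 (0.05002), knockdown 10 (0.0601) or knockdown 11 (0.0594), and without first-set control 1 (0.103) or knockdown 1 (0.0785), without controls 10 and 11 together (0.0815) and with no filter on low values (0.0594), all in limma. Ifitm3 passed in the joined comparison without new-set control 12 (−1.51, limma adjusted p = 0.0156) or first-set knockdown 2 (−1.604, 0.0335), and B2m without control 12 (−1.002, 0.0477). The same held for Irf9 without control 12 (−0.59, limma adjusted p = 0.0273), for Stat2 without first-set control 2 (−0.48, 0.0214) and for Ifitm2 without first-set control 1 (−0.36, 0.0378).

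Likeness of pattern was measured as the root mean square difference of log2(FPKM + 1) over the 10 libraries, each value centred on the control mean of its own table, among 10826 other genes. The gene most like Ifitm3 was B2m (0.529, where the median gene was at 1.30), followed by Usp18 (0.656), and Irf9 ranked 9. The genes most like B2m were H2-K1, an MHC class I heavy chain that B2m pairs with (0.354, median gene 1.02), and Usp18 (0.433), with Irf9 at rank 4 and Ifitm3 at rank 7. For Irf9 the nearest were Gm3893 (0.265) and 4933439C10Rik (0.296), and B2m ranked 164. Among the genes nearest to Irf9 its partner Stat2 ranked 4683. Stat2 was most like Ccdc43 and Gm14326, Ifit2 most like Yipf6 and Tspan7, and Ifitm2 most like Dnajc8 and 1700019E19Rik. The libraries are shared by all these values, so likeness describes these 10 libraries.

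Neighbouring transcripts bear on how 3 of the genes were counted. In GENCODE annotation of GRCm38 (the tables use mm9), Irf9 shares 123 of its 5386 exonic bases with Rnf31 on the same strand, Ifitm2 shares 268 of 655 with Gm45717 on the same strand, and B2m overlaps Patl2 on the opposite strand with 0 exonic bases shared. Rnf31 was at 6.95, 5.67 and 6.77 FPKM in the new-set controls and 4.63, 4.25 and 5.37 FPKM in the knockdown libraries, a smaller difference than for Irf9 (−0.38, limma adjusted p = 0.0941). Patl2 was listed at 0 in all 8 libraries outside the first-set knockdown.

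The rest of the pathway was read from lists of 177 further genes, of which 163 were in the tables. In the new set 4 of 66 tested genes rose and 4 fell, against 3.84% and 5.15% of all tested genes, and in the first set 18 of 75 rose and 6 fell, against 13.2% and 10.7%. With the replicate number as a block 15 passed in the new set, 6 higher and 9 lower. In the new set 1 passed without control 10, knockdown 10 or knockdown 11, 4 without knockdown 12 and 0 without both controls 10 and 11. In the first set 5 passed without control 1, 3 without control 2, 8 without knockdown 1 and 9 without knockdown 2. The medians were −0.14 and −0.04, against 0.02 and −0.15 over all tested genes. With the sets joined 7 of 60 tested pathway genes rose and 10 fell, against 9.37% and 20.5% of all genes tested in both. The rises of the first set came in the libraries with raised olfactory receptor levels. Of the 18, 17 were above the 95th percentile of the olfactory receptor genes in both knockdown libraries, and Cxcl11 was not. The 18 were picked for being higher in these same libraries, so their place above the percentile follows in part from that choice. Of the 18, 7 averaged under 1 FPKM in the controls and so passed the filter only through the knockdown libraries (Aim2, E330016A19Rik, Isg20, Ifitm1, Ifitm7, Ccl2 and Cxcl11), as did 985 of the 1639 genes called higher among all genes. The first-set counts of rises describe these libraries and support nothing. Markers of microglia and macrophages also summed higher there, to 29.3 and 52.2 FPKM against 6.44 and 12.1 FPKM in the controls, with 8 of 12 tested markers called higher, all 8 with a control mean under 1 FPKM. The part of either in the rises was not tested.

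The interferon genes themselves were at or near 0 in the new set. Of the 19 ligand genes measured, 18 were listed at 0 in all new-set libraries, and the highest value there was 0.15 FPKM. In the first-set knockdown libraries 9 of them were above 0, with a highest value of 2.04 FPKM, and 0 were above the 95th percentile of the olfactory receptor genes in both. None was tested.

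Upstream of Irf9 and Stat2, 8 receptor and JAK-STAT genes were tested in each set. In the new set the receptor chain Ifngr2 rose (0.73, limma adjusted p = 0.0255), while Ifnar1 (0.01, 0.942), Ifnar2 (0.07, 0.716), Jak1 (0.34, 0.0544) and Tyk2 (−0.09, 0.679) did not pass. Of the same genes in the first set, Ifnar2 rose (1.11, limma adjusted p = 0.0298) and Ifngr2 fell (−1.23, 0.0177). Among other interferon regulatory factors, Irf3, which the RNA sensors activate, was at 14.2 to 16.9 FPKM throughout the new set. First-set values of Irf3 were 12.6 and 9.94 FPKM in the controls against 20.9 and 19.01 FPKM in both knockdown libraries, without overlap (0.78, limma adjusted p = 0.0511), and Irf3 passed with the sets joined (0.41, 0.0128). Irf1, itself an interferon target, did not pass in the first set (0.34, limma adjusted p = 0.369) and was too low to be tested in the new set. Irf7, which amplifies the response, was at 1.5 and 1.64 FPKM in controls 10 and 11 and at 0.113 to 0.304 FPKM in the other 4 new-set libraries, and was not tested.

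Of 22 genes that sense double-stranded RNA or act on it, 7 were tested in the new set. None passed in limma, 2 had an unadjusted p under 0.05, and all 7 estimates were below 0 with a median of −0.45. Ddx58 was at 1.71, 1.60 and 0.746 FPKM in the new-set controls against 0.425, 0.368 and 0.550 FPKM in the knockdown libraries, without overlap and below the filter. Its first-set values were 0.986 and 0.894 FPKM in the controls and, again without overlap but in the other direction, 1.94 and 1.93 FPKM with knockdown (0.60, limma adjusted p = 0.0955). Ifih1 and Tlr3 were at most 0.172 FPKM in the new set. Mavs, the adaptor of both helicases, had a new-set estimate of −0.49 (limma adjusted p = 0.0584), and Adar, which edits double-stranded RNA, one of −0.06 (0.843). With the sets joined Mavs passed (−0.72, limma adjusted p = 0.00369). It was lower without overlap in each set, as were 7.6% of all genes. Eif2ak2 was at 1.69, 0.956 and 0.935 FPKM in the new-set controls against 0.512, 0.634 and 0.848 FPKM with knockdown, lower without overlap and not tested. In the first set Eif2ak2 rose from 2.66 and 3.26 FPKM to 11.01 and 9.95 FPKM (1.54, limma adjusted p = 0.00622), and Mavs (−0.95, 0.0477) and the kinase Tbk1 (−0.92, 0.0435) fell. In the same knockdown libraries Ifih1 was at 1.13 and 1.32 FPKM, and Oas1a and Oas2 were at most 0.234 FPKM, all under the olfactory receptor percentile. All 3 tested genes of cytosolic DNA sensing rose in the first set, against 13.2% of all tested genes: Aim2 (2.22, limma adjusted p = 0.00210), E330016A19Rik (1.71, 0.00595) and the nuclease Trex1 (0.95, 0.0286). Aim2 and E330016A19Rik averaged 0.81 and 0.37 FPKM in the controls and were tested only because of their knockdown values.

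**Figure D5:**
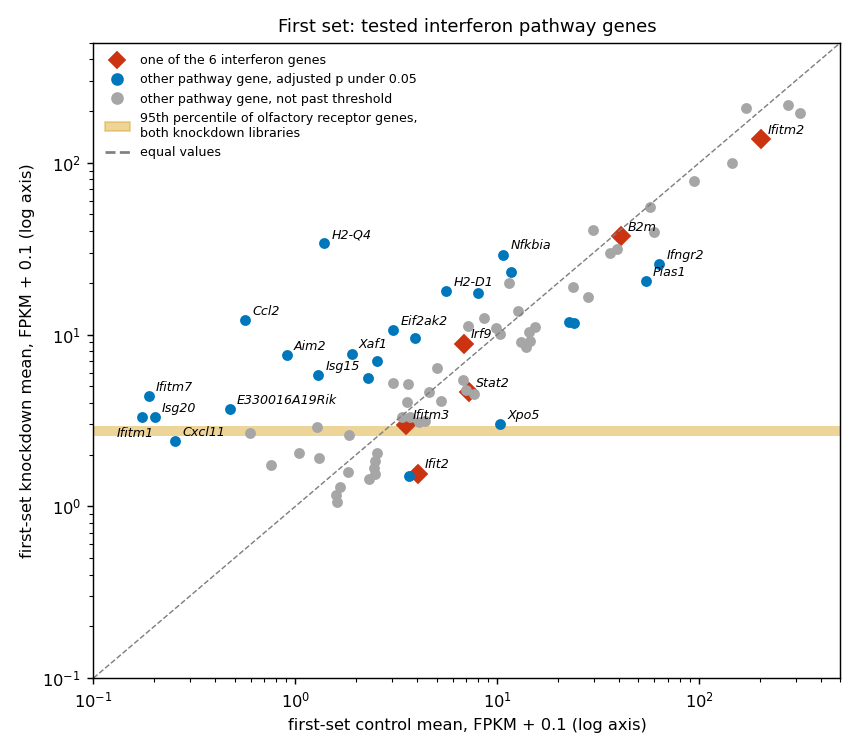
First-set knockdown mean against control mean (FPKM + 0.1, log axes) for the 6 genes (diamonds) and the 75 other tested pathway genes (circles, blue where the adjusted p was under 0.05), with the 95th percentile of the olfactory receptor genes in both knockdown libraries, 2.46 to 2.85 FPKM, as a band. The genes that rose lie above the dashed line of equal values and mostly above the band, and the 6 genes lie near or below the line except Irf9.

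Among 41 other interferon-stimulated effectors, 15 were tested in the new set, with a median of −0.66 against 0.02 over all tested genes. Of these, 1 was called higher and 3 lower, against 3.84% and 5.15% of all tested genes. Parp9 (−0.96, limma adjusted p = 0.0289), its partner Dtx3l (−0.66, 0.0438, named after its value was seen) and Nmi (−0.64, 0.0386) fell, and Cmpk2, a mitochondrial nucleotide kinase, rose from 3.21 to 4.24 FPKM in the controls to 9.44 to 14.2 FPKM in the knockdown libraries (1.30, 0.0103). Isg15, the ubiquitin-like modifier, was at 3.94 and 4.87 FPKM in controls 10 and 11 and at 0.777 FPKM in control 12, against 0.783, 0.175 and 2.19 FPKM in the knockdown libraries (−0.98, limma adjusted p = 0.214). The classic induced genes were near 0: Ifit1, Ifit3, Mx1 and Rsad2 were at most 0.293 FPKM in any new-set library. In the first set 4 of 15 tested effectors rose and 0 fell, against 13.2% and 10.7% of all tested genes. Those that rose were Isg15 (1.63, limma adjusted p = 0.00610), Isg20 (1.94, 0.00226), Xaf1 (1.66, 0.0146) and Irgm1 (1.19, 0.0200, named after its value was seen). Isg20 averaged under 1 FPKM in the controls and was tested only because of its knockdown values. Ifit1 was there at 2.12 and 1.19 FPKM, Rsad2 at 0.668 and 0.850 FPKM, Ifit3 at 0.368 and 0.294 FPKM and Mx1 at 0.266 and 0.159 FPKM in the knockdown libraries, all under the olfactory receptor percentile. Over all 40 effectors in the tables, 19 were higher without overlap in the first-set knockdown (47.5%), against 39.1% of the 20580 genes above 0 in any first-set library.

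Beside Ifitm2 and Ifitm3, the family members Ifitm1 and Ifitm7 were at most 0.263 FPKM in the new set. First-set values of Ifitm1 were 0.147 and 0 FPKM in the controls against 3.85 and 2.58 FPKM in both knockdown libraries (1.96, limma adjusted p = 0.00272). Ifitm7 was at 0 and 0.176 FPKM and at 5.62 and 2.92 FPKM (2.23, limma adjusted p = 0.00312). Both averaged under 1 FPKM in the controls and were tested only because of their knockdown values. The olfactory receptor percentile in those 2 libraries was 2.85 and 2.46 FPKM, so no contrast with Ifitm2 and Ifitm3 is drawn.

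Of the genes that present peptides with B2m, 10 were tested in the new set, and 1 passed, the chaperone Canx (0.37, limma adjusted p = 0.0407), against 8.99% of all tested genes. H2-K1 was at 13.1, 14.1 and 7.93 FPKM in the controls against 5.62, 3.02 and 7.94 FPKM in the knockdown libraries (−0.998, limma adjusted p = 0.0744). H2-D1 was at 19.1, 22.2 and 10.9 FPKM and at 18.7, 1.38 and 10.8 FPKM (−1.11, limma adjusted p = 0.301). Among the first-set libraries H2-Q4 rose from 1.18 and 1.39 FPKM to 42.2 and 25.5 FPKM (3.89, limma adjusted p = 0.000696), H2-D1 rose (1.57, 0.0177) and H2-T23 rose (1.04, 0.0205), while H2-K1 was at 7.03 and 14.6 FPKM against 10.1 and 9.33 FPKM in the controls (0.06, 0.911). Class I heavy chain genes are related in sequence, and the sources used here do not say how fragments in shared stretches were assigned, so these values are uncertain. The transporter Tap1 (0.67, limma adjusted p = 0.0708) and the immunoproteasome subunit Psmb8, at most 0.898 FPKM there, did not pass or were not tested.

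Of 10 tested negative regulators of the pathway, 1 passed in the new set, against 8.99% of all tested genes. It was the phosphatase Ptpn2, which fell (−0.34, limma adjusted p = 0.0434). Socs3 rose (1.02, limma adjusted p = 0.0348) and Pias1 fell (−1.37, 0.00484) in the first set. Of the NF-kB and cytokine outputs of RNA sensing, 0 of 3 tested passed in limma in the new set, none with an unadjusted p under 0.05. In the first set 3 of 5 rose, against 13.2% of all tested genes: Ccl2 (2.97, limma adjusted p = 0.0127), Cxcl11 (1.42, 0.0289) and Nfkbia (1.39, 0.0189). Ccl2 and Cxcl11 averaged under 1 FPKM in the controls and were tested only because of their knockdown values. Cxcl11 was not above the olfactory receptor percentile in both knockdown libraries. Of the proteins that process hairpin RNA, 10 were tested in each set. Tarbp2, the partner of Dicer, rose in the new set (0.64, limma adjusted p = 0.0323), and the exporter Xpo5 (−1.54, 0.0190) and the Argonaute gene Eif2c1 (−0.99, 0.0300) fell in the first.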

How the data were processed

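Sorted GFP-positive cells of embryonic mouse cortex were profiled by RNA sequencing. Per the labels' protocols, RNA came from an RNeasy Plus kit and libraries from a Clontech low-input kit. Per the submitters' processing notes, TopHat2, Bowtie, Cufflinks 2.0.0, Cuffdiff and the mouse build mm9 were used. The sources used here do not name the annotation, strand handling or read filters. The authors deposited FPKM values in 2 separate tables of 23235 symbols, with 0 sample columns that could not be mapped. Libraries were grouped by title. Replicates are separate embryo pools, per the series' design text. Absolute depth is unknown, so counting error per value is unknown, and relative depth was read from the most common ratio between libraries of values under 0.15 FPKM.

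Values were transformed to log2(FPKM + 1), which understates the change of low genes. Genes that averaged 1 FPKM or more in a table were tested with limma 3.58.1 in R 4.3.3 (intensity trend, two-sided, Benjamini-Hochberg over all genes tested, threshold 0.05). A joined fit over genes tested in both tables gave the mean of both fold changes and their difference. The residual degrees of freedom were 4 for the new set, 2 for the first and 6 for the joined fit. The procedure was checked on simulated data. In the new set the deviations of same-numbered libraries from their group means correlated at 0.122, 0.242 and 0.193 across genes. Other combinations ran from −0.162 to −0.0133. Deviations within a group are tied to each other, so these values do not settle a pairing. The labels state none, and the main fit used no block. In the first set the same-numbered correlation was −0.0285.

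The 6 genes and all lists were chosen with earlier results of these data known. Named by rule were the 6 genes, Chd8, a panel of pathway genes, and up to 3 genes of each list per comparison that passed with groups that did not overlap. The 2 most alike genes of each of the 6 were added. Other genes were named after their values were seen. A gene of the panel is not reported here. Alternatives were other pseudocounts and filters, median-of-ratios rescaling, no trend, the replicate block, background subtraction and leaving out each library. Motifs and overlaps used Python 3.11.15 and Biopython 1.88.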

Additional observations from a re-analysis of the deposited data

Results flagged for a closer look

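The fold change of Irf9 differed between the sets by −1.62 (new minus first, limma adjusted p = 0.00882), as its new-set value was −1.28 and its first-set value 0.35. Among the 6 genes it alone passed that test, and 32.5% of all 10827 genes passed it. The sets lie in separate tables named for different hairpins, the labels name no batch and no hairpin per sample, and such differences cannot be told apart.

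Of the 60 other pathway genes tested, 22 passed the same limma test of the difference at an adjusted p under 0.05 (36.7%), 10 above 0 and 12 below. Those named were 17 by rule and Irgm1 and Dtx3l after their values were seen. The new-set fold change was the lower one for Ifnar2 (−1.04), Irf3 (−0.74), Isg15 (−2.61), H2-D1 (−2.68), Tap1 (−1.04), Trex1 (−1.26), H2-T23 (−1.90), Socs3 (−1.01), Nfkbia (−1.50), Irgm1 (−2.26) and Dtx3l (−1.44). It was the higher one for Ifnar1 (0.60), Jak1 (0.82), Ifngr2 (1.97), Cmpk2 (1.30), Canx (0.89), Tbk1 (0.72), Pias1 (1.44) and Xpo5 (1.69).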

How the results depend on the processing

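The tests rest on 3 against 3 and 2 against 2 libraries, and counts of calls moved with the settings more than estimates did. Of all genes, 1015 passed in the new set, 2971 of the first-set genes, 3238 joined and 3520 in the difference between sets. Without a filter on low values these were 31 in the new set, 7298 joined and 7624 in the difference, with 0 of the 6 genes called in the new set or joined. With a mean of at least 5 FPKM, 1602 passed in the first set, and 0 of the 6 genes passed in the new set, joined or in the difference, where Irf9 and Ifit2 were no longer tested. With the replicate block, a pairing that the labels do not state, 2452 passed in the new set, the calls among the 6 genes did not change, and of 67 calls of named genes 5 were lost (the first-set calls of Mavs, Tbk1 and Socs3 and the differences of H2-D1 and Jak1). After background subtraction 1 of the 6 genes passed in the first set and 2 in the difference. Leaving out each library in turn gave 47 to 1846 new-set and 485 to 1387 first-set genes. Of the 6 genes it gave 0 to 2 for the new set, 0 to 1 for the first, 0 to 3 joined and 1 to 3 in the difference. Without new-set controls 10 and 11 together, chosen after seeing the data, 21 genes passed in the new set, 1666 joined and 1850 in the difference, with 0 of the 6 genes in each. Signs turned, in each case with a library left out and never in a called gene, for Ifitm2 in the new set (−0.069 without control 10 to 0.13 without control 11, and −0.0031 without both), Stat2 in the new set (0.048) and Ifitm3 in the difference (0.38) without both controls, B2m in the first set without control 1 (0.16) or knockdown 1 (range −0.75 to 0.37), and Ifitm3 there without knockdown 1 (range −1.49 to 0.49). Of 496 calls of named genes retested with 1 library left out, 155 were lost and 0 changed sign. The causes were not tested.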
